A study of Mus musculus with 17 samples.

Results

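The MYC, MAX and MXD network was examined through 10 genes: Myc, Mycn, Mycl, Max, Mga, Mnt, Mxd1, Mxi1, Mxd3 and Mxd4. They were taken by gene name, and like the lists of related genes below they were chosen with earlier results of these data known. All 10 were found among the 26029 genes of the table of model 1 and the 24659 genes of the table of model 2. RNA-seq libraries had been made from erythroid blasts of 17 TgSpi1 mice, with 1 library per mouse, after culture with erythropoietin (EPO). All mice carried the Spi1 transgene, which overexpresses the transcription factor SPI1 (PU.1) and blocks erythroid differentiation. Model 1, of strain DBA2JxFVB/N, held TgSpi1FA+/+ preleukaemic cells (named here by stage, PL or L, and mouse number: PL-445, PL-479, PL-451 and PL-138), TgSpi1FA−/− preleukaemic cells (PL-77, PL-224 and PL-40) and TgSpi1FA−/− leukaemic cells (L-26, L-28 and L-39), where FA−/− stands for loss of both copies of Fanca, a gene of the Fanconi anaemia DNA repair pathway. Model 2, of strain DBA2J, held TgSpi1FA+/+ preleukaemic cells (PL-633, PL-663, PL-812 and PL-837) and TgSpi1FA+/+ leukaemic cells (L-601, L-606 and L-921), the latter having emerged after serial blood transfusion of preleukaemic mice. Ages were not analysed here. Libraries of the 2 models also differed in the amount of RNA and the time of fragmentation, so that model, strain and library protocol cannot be told apart.

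MYC, MYCN and MYCL are transcription factors that bind E-box DNA, with the core letters CACGTG, only as partners of MAX, and drive genes of ribosome production, nucleotide synthesis and growth. MXD1, MXI1, MXD3, MXD4, MNT and MGA pair with the same MAX protein and bind the same sites; the MXD proteins and MNT recruit the SIN3-HDAC corepressor, and MGA belongs to the PRC1.6 repressor complex. In the erythroid lineage MYC is high in dividing progenitors and falls as cells mature, while several MXD genes rise with maturation.

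Levels of a gene were given in CPM, its counts scaled to a common library total after TMM normalization. Total counts ranged from 29964576 to 38217654 per library in model 1 and from 37726753 to 40514205 in model 2. Fanca stood at 28.2 to 83.5 CPM in the 4 TgSpi1FA+/+ libraries of model 1 and at 0.615 to 2.30 CPM in the 6 TgSpi1FA−/− libraries. Spi1 stood at 467 to 1061 CPM in all preleukaemic libraries of model 1, at 630 CPM in L-26 and 220 CPM in L-28, but at 3.88 CPM in L-39, a library whose label gives the transgene. In model 2 Spi1 stood at 215 to 332 CPM in preleukaemic and 103 to 188 CPM in leukaemic libraries. The tests of members that use L-39 were therefore also run without it, except in a further table described below. For list genes this was done for leukaemic against preleukaemic TgSpi1FA−/− cells and for the difference between models only. All 12 erythroid markers were counted in each of the 5 groups, at a summed 2369 to 10457 CPM per library, whereas summed lymphoid markers did not pass 0.222 CPM and summed myeloid markers did not pass 1.87 CPM. The lymphoid markers Cd8a and Ms4a1 and the neutrophil marker Ly6g were not listed among the genes of either model, so that no count was recorded for them. The labels of PL-77, PL-224 and PL-40 conflict: their titles give the preleukaemic stage used here, while their source names and column names give the leukaemic one.

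Per kilobase of annotated exon, Myc was the highest member in each of the 5 groups and Max was next. In TgSpi1FA−/− preleukaemic cells the level per kilobase was 219 ± 66.8 CPM for Myc (SD, n = 3), 52.1 ± 4.15 CPM for Max, 15.0 ± 2.01 CPM for Mga, 14.7 ± 0.594 CPM for Mnt and 12.9 ± 2.04 CPM for Mxi1. The same scale gave 9.20 ± 1.11 CPM for Mxd1, 7.67 ± 0.432 CPM for Mxd4 and 1.45 ± 0.213 CPM for Mxd3. Mga, Mnt and Mxi1 did not differ beyond their spread in that order, nor did Mxd1 and Mxd4, whose ranges per kilobase met at 8.03 to 8.14 CPM. Mycl and Mycn were the lowest, at 0.0295 ± 0.0450 and 0.0129 ± 0.0154 CPM per kilobase. Myc therefore made up 96.2% to 100% of the summed level per kilobase of the 3 MYC genes in every library.

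**Figure D1:**
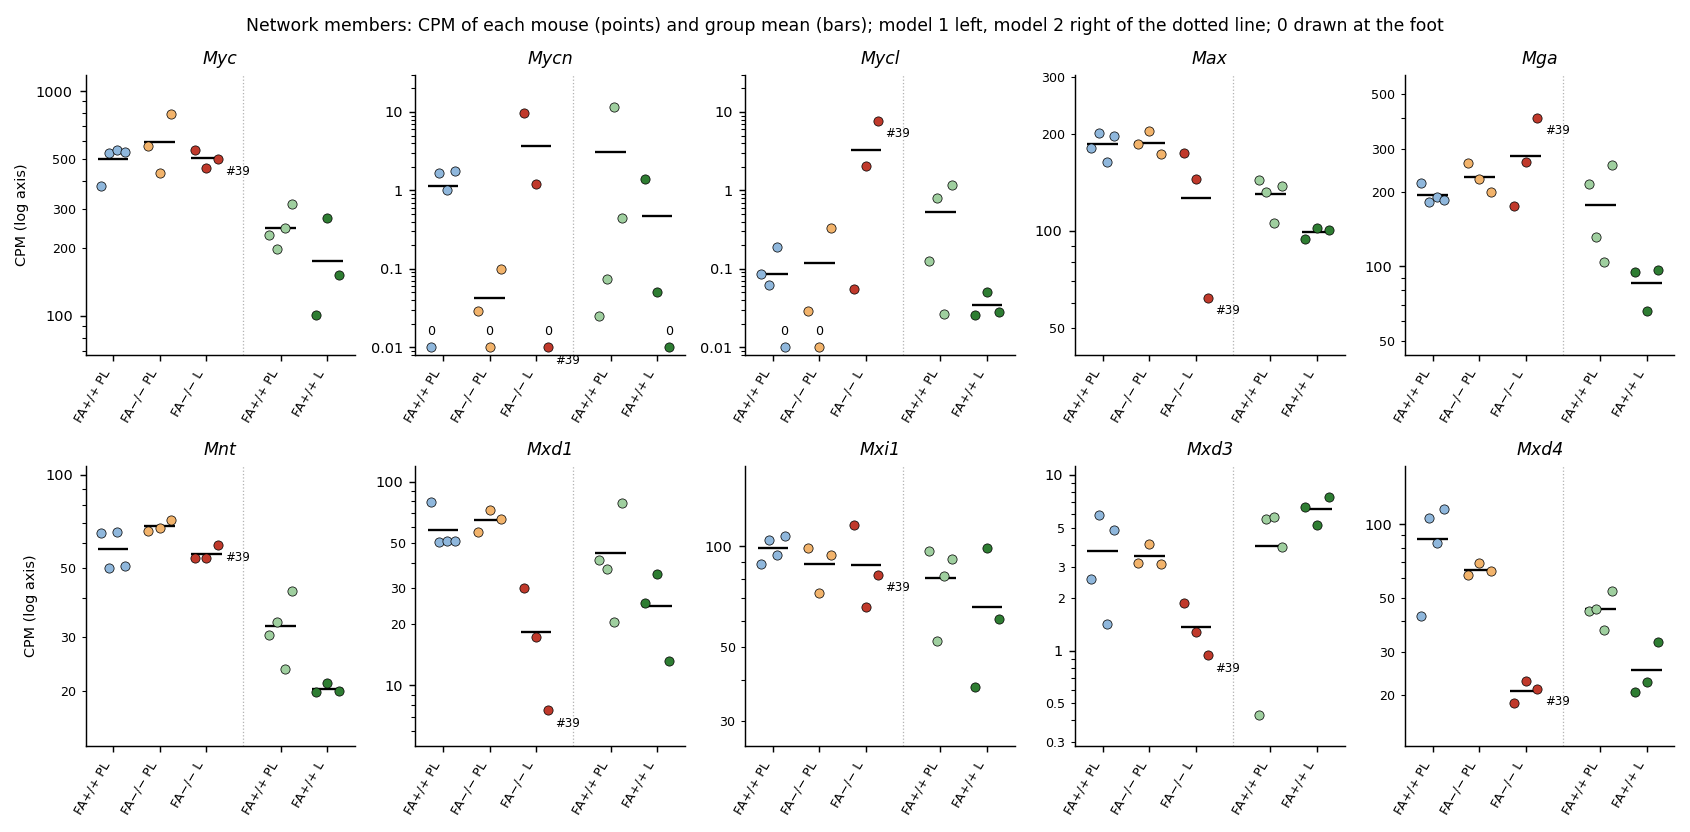
CPM of the 10 members in each of the 17 libraries (points, log axis; a value of 0 is drawn at the foot of the axis and marked), with bars at group means; PL is preleukaemic, L leukaemic and #39 mouse L-39. Mxd4 was at 18.4 to 22.6 CPM in the 3 TgSpi1FA−/− leukaemic libraries and at 61.9 to 69.1 CPM in the 3 TgSpi1FA−/− preleukaemic libraries, while the Myc values of these groups overlapped.

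Leukaemic were first compared with preleukaemic TgSpi1FA−/− cells, which addresses how the network's transcripts stood before and after progression without FANCA. Among the 10 members, 2 changed, and both are MXD genes: Mxd1 was 3.55-fold lower and Mxd4 3.14-fold lower in leukaemic cells, while Myc differed by less than its spread between mice. A gene was called changed at an adjusted p under 0.05 (edgeR's quasi-likelihood test, Benjamini-Hochberg over all 13393 genes tested) with a fold of at least 1.5. Of all genes tested, 13.3% were called, so that 2 of 10 members is a share close to that of the whole table. Another 3 members, Mycn, Mycl and Mxd3, had an unadjusted p under 0.05, as had 32.4% of all genes.

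Mxd1 (chr6:86647042-86669161, minus strand, GRCm38), a MAX partner induced during differentiation of blood cells, was at 65.9, 56.8 and 72.5 CPM in the TgSpi1FA−/− preleukaemic mice PL-77, PL-224 and PL-40. It was at 30.1, 17.3 and 7.56 CPM in the leukaemic mice L-26, L-28 and L-39. Each leukaemic value lay below each preleukaemic one, and L-39 was the lowest of the 17 libraries. The log2 fold change was −1.83 (SE 0.428, adjusted p = 0.027 by edgeR), and −1.43 (SE 0.307, adjusted p = 0.0407) without L-39. The call was lost without PL-77, PL-224, PL-40 or L-28, at adjusted p-values of 0.0664 to 0.0946 by edgeR, with log2 fold changes between −1.90 and −1.75. It was also lost when the 6 libraries were fitted alone (adjusted p = 0.0711 by edgeR).

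Mxd4 (chr5:34173883-34187720, minus strand), a further MAX partner linked to differentiation, was at 64.2, 61.9 and 69.1 CPM in PL-77, PL-224 and PL-40. It was at 18.4, 22.6 and 21.1 CPM in L-26, L-28 and L-39. The groups were far apart and each was narrow, with SDs of 3.66 and 2.14 CPM. The log2 fold change was −1.65 (SE 0.321, adjusted p = 0.0165 by edgeR). Leaving out 1 library left it between −1.70 and −1.57, but the adjusted p of edgeR rose to 0.0525 without PL-224, 0.0579 without L-28 and 0.05, at the threshold and not called, without L-39. An exon of Mxd4 overlaps a gene model on the opposite strand, and the strand setting of the counting is not given in the sources used here.

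The RefSeq promoter windows of Mxd1 and Mxd4 are shown because these were the only members called, each from 250 to 51 bases before the start site (build GRCm38.p6, minus strand, printed 5′ to 3′ along the gene). The windows lie at chr6:86669210-86669409 for Mxd1 and chr5:34187761-34187960 for Mxd4, and capitals mark the E-box CACGTG.
Mxd1: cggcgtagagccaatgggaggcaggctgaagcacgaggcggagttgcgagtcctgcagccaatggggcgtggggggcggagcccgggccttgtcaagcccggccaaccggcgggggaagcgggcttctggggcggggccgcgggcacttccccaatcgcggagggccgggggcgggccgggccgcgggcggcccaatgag
Mxd4: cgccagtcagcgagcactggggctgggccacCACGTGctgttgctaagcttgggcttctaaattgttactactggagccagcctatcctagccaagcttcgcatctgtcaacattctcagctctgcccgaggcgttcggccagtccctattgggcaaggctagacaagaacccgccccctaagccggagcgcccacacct

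Motifs were described in the promoters of Mxd1, Mxd4, Max and Mxi1 only, from 250 bases before to 50 after each start site; nothing is said here of the other members' promoters. Of these 4 genes, the E-box, which reads the same on both strands, was found for Mxd4 and Max. Of all 32851 promoter windows, 7.15% held it. It began 219 bases before the start of Mxd4 and 3 before that of Max. A window of 30 bases around the site of Max is shown to set it beside that of Mxd4, at chr12:76962242-76962271 (minus strand), with the E-box in capitals.
Max: cccggcgcggtgagcccggtCACGTGttag
The SPI1 core letters GAGGAA, searched on both strands, were found for Max and Mxi1 among these 4 genes and in 28.3% of all windows. The GATA letters AGATAA, searched on both strands, were found for none of these 4 genes and in 11.2% of all windows. These matches are descriptions of the windows and not measured binding.

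Myc (chr15:61985391-61990374, plus strand, GRCm38), the main MYC gene of these cells, was at 790, 569 and 430 CPM in PL-77, PL-224 and PL-40. In the TgSpi1FA−/− leukaemic mice L-26, L-28 and L-39 it was at 549, 454 and 500.5 CPM. All 3 leukaemic values lay inside the preleukaemic range, whose width came from PL-77. The log2 fold change was −0.25 (SE 0.225, adjusted p = 0.48 by edgeR), and it was 0.02 without PL-77 and −0.22 without L-39. In TgSpi1FA+/+ preleukaemic mice Myc was at 531, 535, 545 and 379 CPM, again overlapping the TgSpi1FA−/− groups.

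Mycn (chr12:12936093-12941914, minus strand), usually active in stem cells and neural tissue, was sparse. It was counted 3, 1 and 0 times in PL-77, PL-224 and PL-40, and 356, 47 and 0 times in L-26, L-28 and L-39. In CPM the leukaemic values were 9.76, 1.20 and 0, so that L-26 and L-28 were above the preleukaemic mice and L-39 was not. Pooled over mice, the 403 leukaemic counts against 4 preleukaemic counts gave a ratio per counted read of 86.6 (95% exact interval 33.6 to 319, counting error only). Between mice the fitted log2 fold change of 6.32, which depends on the software's handling of counts near 0, had an SE of 2.35 and did not pass (adjusted p = 0.0987 by edgeR), nor did it without L-39 (6.93, SE 1.91, adjusted p = 0.0673). TgSpi1FA+/+ preleukaemic mice had 54, 56, 32 and 0 counts in PL-445, PL-479, PL-451 and PL-138, so in these counts Mycn was not particular to leukaemic cells. In the further table of these mice, described below, PL-445, PL-479 and PL-451 had lower CPM of Mycn than L-26 and L-28.

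Mycl (chr4:122995652-123002485, plus strand), the third MYC gene, was counted 10, 1 and 0 times in PL-77, PL-224 and PL-40. In L-26, L-28 and L-39 it was counted 2, 80 and 304 times, the last of these being 7.71 CPM. Mycn and Mycl were thus high in different leukaemic mice: L-26 had Mycn without Mycl, L-39 had Mycl without Mycn, and L-28 had low levels of both. The fitted log2 fold change of Mycl was 4.75 (SE 1.77, adjusted p = 0.0991 by edgeR), and 3.13 (SE 1.69, adjusted p = 0.272) without L-39. DESeq2's Wald test, used as an alternative, called both genes (adjusted p = 0.00807 for Mycn and 0.016 for Mycl), along with Mxd1 and Mxd4; it called 19.8% of all genes.

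Max (chr12:76937269-76962201, minus strand), the shared partner, was at 173, 186 and 203 CPM in PL-77, PL-224 and PL-40. It was at 174, 144 and 62.1 CPM in L-26, L-28 and L-39. The low value of L-39 set the difference: the log2 fold change was −0.56 (SE 0.306, adjusted p = 0.233 by edgeR) with it and −0.21 (SE 0.147, adjusted p = 0.394) without it. Mga (chr2:119897228-119969581, plus strand), the PRC1.6 subunit, was at 200, 262 and 226 CPM in PL-77, PL-224 and PL-40 and at 176, 266 and 399 CPM in L-26, L-28 and L-39. Here L-39 was the highest of the 17 libraries, and the log2 fold change of 0.29 (SE 0.254, adjusted p = 0.468 by edgeR) was −0.03 without it. The 2 genes thus lay at opposite ends of their ranges in L-39. In the further table described below, however, Mga in L-39 was close to that in L-26 and L-28.

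Mnt (chr11:74830920-74845725, plus strand), a MAX partner made in dividing and resting cells alike, was at 71.1, 65.8 and 67.5 CPM in PL-77, PL-224 and PL-40. It was at 53.8, 53.7 and 59.4 CPM in L-26, L-28 and L-39. Each leukaemic value lay below each preleukaemic one, yet the log2 fold change was small and did not pass (−0.29, SE 0.145, adjusted p = 0.194 by edgeR; −0.32 without L-39). Mxd3 (chr13:55325168-55329823, minus strand), the MXD gene known from cells in S phase, was at 3.12, 3.16 and 4.01 CPM in PL-77, PL-224 and PL-40 and at 1.86, 1.28 and 0.939 CPM in L-26, L-28 and L-39. Its groups did not overlap either, with a log2 fold change of −1.33 (SE 0.549, adjusted p = 0.129 by edgeR), or −1.10 (SE 0.629, adjusted p = 0.3) without L-39. Mxi1 (chr19:53310518-53375810, plus strand), an MXD protein induced by differentiation and low oxygen, was at 93.9, 98.5 and 72.4 CPM in PL-77, PL-224 and PL-40 and at 116, 66.0 and 82.1 CPM in L-26, L-28 and L-39. Its values overlapped and the log2 fold change was −0.0048 (SE 0.207, adjusted p = 0.99 by edgeR), with a sign that turned under DESeq2's scaling and without L-39 (0.07). In all, 4 of 10 members did not overlap between these groups, each lower in leukaemic cells, against 38.7% of all genes without overlap, 19.3% lower and 19.4% higher. Exons of Mxd3 and Mxi1 overlap gene models on the opposite strand, like those of Mxd4.

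Markers of differentiation moved between these same libraries. Summed erythroid markers were at 5587 to 5952 CPM in the 3 TgSpi1FA−/− preleukaemic mice and at 2369 to 4716 CPM in the 3 leukaemic mice. Of the 12 erythroid markers, 3 fell, against 6.49% of all genes called lower. They were the globin gene Hbb-bt (log2 fold change −5.94, SE 1.38), the erythroid factor Klf1 (−1.27, SE 0.178) and the repressor Gfi1b (−0.75, SE 0.133). Among the 12 markers 11 had negative values, with a median of −0.70, against −0.0012 over all genes. Klf1 was called in each fit with 1 library left out (−1.06 without L-39), while Hbb-bt was lost without PL-77, PL-224 or L-28 and Gfi1b without PL-224. Summed megakaryocyte markers were at 172 to 276 CPM in leukaemic and 45.1 to 60.2 CPM in preleukaemic mice. Of 5 tested, 2 rose, against 6.82% of all genes called higher: Itga2b (log2 fold change 3.21, SE 0.381) and Vwf (2.89, SE 0.708), the latter at only 1.98 CPM in leukaemic cells. In TgSpi1FA+/+ preleukaemic mice the sums reached from 60.6 to 200 CPM, overlapping the leukaemic ones. Their mean Vwf was 2.70 CPM, above that of leukaemic cells, while their Itga2b, at 29.7 to 56.0 CPM, was under the leukaemic 92.8 to 243 CPM. Itga2b was called in each fit with 1 library left out, whereas Vwf was lost without PL-224, PL-40, L-28 or L-39 (2.43, SE 0.72, adjusted p = 0.0791 by edgeR without L-39). Summed mast cell markers were at 45.0 to 73.6 CPM against 5.64 to 40.7 CPM, and at 17.4 to 208 CPM in TgSpi1FA+/+ preleukaemic mice. None of the 5 tested was called between leukaemic and preleukaemic TgSpi1FA−/− cells. Of these, 2 had positive and 3 negative log2 fold changes, with a median of −0.80. No lymphoid marker and only 2 of 7 myeloid markers passed the filter on low counts, and none was called. The part of these shifts in the lower Mxd1 and Mxd4 was not tested, and in bulk RNA fewer cells of a type and less RNA per cell cannot be told apart.

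**Figure D2:**
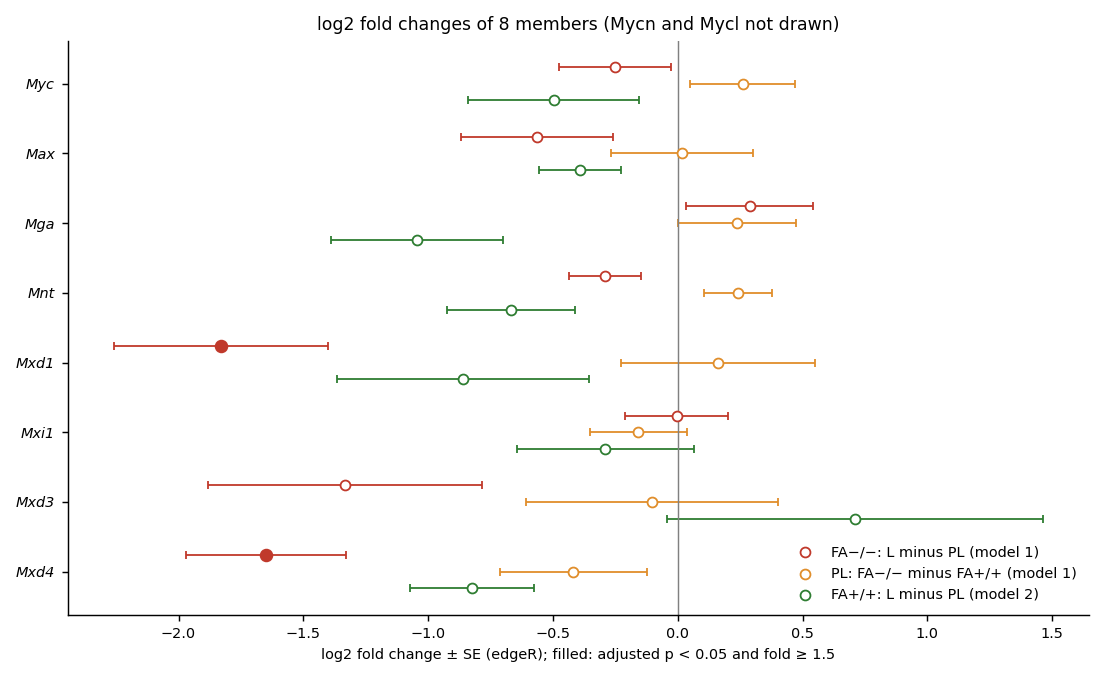
log2 fold change with its SE (edgeR) of 8 members in 3 comparisons: leukaemic minus preleukaemic TgSpi1FA−/− cells (red), TgSpi1FA−/− minus TgSpi1FA+/+ preleukaemic cells (orange), both in model 1, and leukaemic minus preleukaemic TgSpi1FA+/+ cells of model 2 (green); filled points passed the test. Mxd1 at −1.83 and Mxd4 at −1.65 were the only filled points.

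TgSpi1FA−/− and TgSpi1FA+/+ preleukaemic cells were compared next, for the effect of FANCA loss before leukaemia. None of the 10 members was called, against 0.00747% of all genes (1 gene), and none had an unadjusted p under 0.05, against 8.65% of all genes (edgeR). DESeq2 also called no member, against 1.87% of genes. Mnt, at 49.8, 50.7, 65.3 and 64.7 CPM in the TgSpi1FA+/+ mice PL-445, PL-479, PL-451 and PL-138, was the only member whose groups did not overlap (8.53% of all genes), with a log2 fold change of 0.24 (SE 0.135, adjusted p = 0.648 by edgeR). Mxd4 was at 106, 116, 83.8 and 41.9 CPM in these 4 mice, a range that held all 3 TgSpi1FA−/− preleukaemic values, and its log2 fold change was −0.42 (SE 0.295, adjusted p = 0.728). Mxd1 was at 50.6, 51.3, 51.0 and 79.7 CPM, with PL-138 apart from the others, and its log2 fold change was 0.16 (SE 0.387, adjusted p = 0.944 by edgeR). The other members had log2 fold changes between −0.16 and 0.46, apart from the sparse Mycn at −4.62 (SE 2.18, adjusted p = 0.593 by edgeR).

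TgSpi1FA−/− leukaemic cells were also set against TgSpi1FA+/+ preleukaemic cells, a comparison that shares its mice with both others. The same 2 of 10 members were called and had no overlap between groups, both lower, against 7.01% of all genes called (3.46% lower and 3.55% higher) and 25.7% without overlap (12.9% lower and 12.8% higher). The log2 fold change was −1.67 for Mxd1 (SE 0.408, adjusted p = 0.0424 by edgeR) and −2.07 for Mxd4 (SE 0.313, adjusted p = 0.0135 by edgeR). Without L-39 they were −1.28 (SE 0.295, adjusted p = 0.0723, not called) and −2.07 (SE 0.386, adjusted p = 0.0462) by edgeR. Both calls were lost without L-28, at edgeR's adjusted p-values of 0.144 and 0.0645. Of the 7 libraries, only leaving out L-26 kept Mxd1 called, whereas Mxd4 was lost without L-28 alone. Libraries PL-445 and PL-479 differed from each other far less than other pairs of mice of model 1, where the chi-square of their counts, divided by its degrees of freedom, was 6.38 against 79.4 to 259 for the others. In a further table of these mice the same pair was at 249, near the 275 of PL-445 and PL-451, so that the likeness was seen in one table and not in the other, and the cause was not tested. With their mean as 1 library Mxd1 was no longer called (adjusted p = 0.0904 by edgeR).

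A further deposited table held other counts for 7 of these mice, with 35497594 to 171572736 counts per library. In it Mxd1 was at 28.6, 19.4 and 9.56 CPM in L-26, L-28 and L-39 and at 49.0 to 130 CPM in the 4 TgSpi1FA+/+ preleukaemic mice. Mxd4 was at 49.5, 47.3 and 15.2 CPM against 49.9 to 143 CPM. The groups of Mxd1 did not overlap, and those of Mxd4 nearly met, at 49.49 CPM in L-26 and 49.86 CPM in PL-479. The share of all genes without overlap was not computed for these counts. Neither gene passed the test, with log2 fold changes of −1.86 (SE 0.519, adjusted p = 0.127 by edgeR) and −1.41 (SE 0.492, adjusted p = 0.192). No member was called, and the number of all genes called in these counts is given in the last section. Mga was at 318, 320 and 329.5 CPM in L-26, L-28 and L-39, against 145.6 to 246.5 CPM in the TgSpi1FA+/+ preleukaemic mice. All 3 leukaemic values were thus higher, and L-39 did not stand apart. Sparse members moved more between the tables: Mycl in PL-138 had 3 counts (0.0852 CPM) in the first and 360 counts (3.35 CPM) in the other, and Mycn in L-26 was at 9.76 and 1.45 CPM. In the other table Mycn was at 0.125, 0.0165, 0.403 and 0.0186 CPM in PL-445, PL-479, PL-451 and PL-138. These values lay under the 0.738 CPM of L-28 and the 1.45 CPM of L-26. The pattern of Mycl in L-39 without Mycn held in both, with 208 Mycl counts and 0 Mycn counts in the other table.

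Leukaemic progression with FANCA present was followed in model 2. None of the 9 members tested was called, as none (0%) of the 12970 genes was by edgeR, whose smallest adjusted p was 0.162; at an unadjusted p under 0.05 there were 4 members and 19.9% of all genes. DESeq2 called 470 genes (3.45%) and no member. The groups of 4 members did not overlap, Max, Mga, Mnt and Mxd4, each lower in leukaemic cells, against 20.1% of all genes, 10.4% lower and 9.65% higher.

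Mga was at 216, 132, 104 and 257 CPM in the preleukaemic mice PL-633, PL-663, PL-812 and PL-837. It was at 95.3, 65.8 and 97.1 CPM in the leukaemic mice L-601, L-606 and L-921. The leukaemic mice were all lower, though by little against PL-812, and the log2 fold change was −1.04 (SE 0.345, adjusted p = 0.18 by edgeR). Mxd4 was at 44.2, 45.0, 36.8 and 53.0 CPM and then at 20.4, 22.5 and 32.9 CPM, with a log2 fold change of −0.82 (SE 0.25, adjusted p = 0.173 by edgeR). Mnt was at 30.3, 33.4, 23.6 and 42.1 CPM and then at 19.9, 21.2 and 20.01 CPM, with a log2 fold change of −0.67 (SE 0.255, adjusted p = 0.211 by edgeR). Max was at 144, 132 and 106 CPM in PL-633, PL-663 and PL-812, with PL-837 (5582 counts) between the first 2 of these, and then at 94.6, 102 and 101 CPM, with a log2 fold change of −0.39 (SE 0.165, adjusted p = 0.243 by edgeR). For these genes every leukaemic value lay under every preleukaemic one.

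The other members overlapped between the groups of model 2. Myc was at 229, 199, 247 and 315 CPM in the preleukaemic mice and at 101, 273 and 152 CPM in L-601, L-606 and L-921, with a log2 fold change of −0.50 (SE 0.344, adjusted p = 0.455 by edgeR). Mxd1 was at 41.4, 37.5, 20.5 and 79.0 CPM and then at 25.4, 35.1 and 13.1 CPM (log2 fold change −0.86, SE 0.504, adjusted p = 0.375 by edgeR). Mxi1 was at 96.9, 52.2, 81.5 and 91.4 CPM and then at 38.0, 99.0 and 60.5 CPM, an order of leukaemic mice that was also that of Myc. Mxd3 was at 0.429, 5.62, 5.79 and 3.86 CPM and then at 6.59, 5.18 and 7.49 CPM, with PL-633 far below the rest. Mycn was counted 1, 3, 438 and 18 times and then 54, 2 and 0 times, so that PL-812 alone held most of its counts. Mycl was under the filter, with 5, 32, 1 and 47 counts and then 1, 2 and 1, a pooled ratio per counted read of 15.5 (95% exact interval 5.85 to 58.3, counting error only). Summed erythroid markers were at 5493 to 10457 CPM in the preleukaemic mice and 3459 to 6061 CPM in the leukaemic mice of model 2. Summed mast cell markers were at 31.2 to 94.8 CPM and 155 to 208 CPM. Of the 12 erythroid markers, 11 had negative log2 fold changes, with a median of −0.815 against −0.0303 over all genes. None of the 12 was called by edgeR. DESeq2 called 4 of them lower, against 3.45% of all genes called in either direction. The part of these markers in the members' values was not tested.

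The difference between the leukaemic change of TgSpi1FA−/− cells and that of TgSpi1FA+/+ cells was tested over all 17 libraries. No member passed, against 4.61% of 14597 genes called by edgeR, and 3 members had an unadjusted p under 0.05, against 25.8% of all genes. The lowest adjusted p-values were those of Mycl (difference of log2 fold changes 8.53, SE 2.39, adjusted p = 0.0537 by edgeR), Mga (1.31, SE 0.433, adjusted p = 0.0802) and Mycn (9.01, SE 3.59, adjusted p = 0.13). DESeq2 called these 3 members, with adjusted p-values of 0.00191, 0.0364 and 0.0455, and 13.5% of all genes. Within model 2 Mycl was under the filter, at 1 to 47 counts a library, and Mycn had 0 counts in PL-40, L-39 and L-921. The differences of Mycl and Mycn therefore depend on the software's handling of counts near 0. Mga and Mycl passed by edgeR without L-26 or without PL-812, whereas without L-39 the difference was 0.98 for Mga (SE 0.412, adjusted p = 0.189), 6.89 for Mycl (SE 2.3, adjusted p = 0.115) and 9.60 for Mycn (SE 3.4, adjusted p = 0.132). For Mxd4 the difference was −0.84 (SE 0.402, adjusted p = 0.2 by edgeR) and for Mxd1 −0.98 (SE 0.673, adjusted p = 0.378 by edgeR), or −0.85 and −0.61 without L-39, so the fall called in TgSpi1FA−/− cells was not shown to differ from the change in TgSpi1FA+/+ cells.

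Levels per kilobase were then summed by role, a description chosen after the values had been seen. The 4 MXD genes Mxd1, Mxi1, Mxd3 and Mxd4 summed to 31.96, 31.1 and 30.7 CPM per kilobase in PL-77, PL-224 and PL-40 and to 24.2, 15.3 and 16.0 in L-26, L-28 and L-39. The 3 leukaemic sums were all lower. Myc, Mycn and Mycl summed to 291, 209 and 158 CPM per kilobase before and to 205, 168 and 186 after progression, which overlapped. The MYC sum was 9.10, 6.73 and 5.16 times the MXD sum in the preleukaemic mice and 8.48, 11.0 and 11.7 times in the leukaemic mice, so that PL-77 reached past L-26. In model 2 the same ratio was 3.31 to 4.36 in preleukaemic and 2.61 to 4.14 in leukaemic mice. A sum of transcripts says nothing of the proteins, which were not measured.

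**Figure D3:**
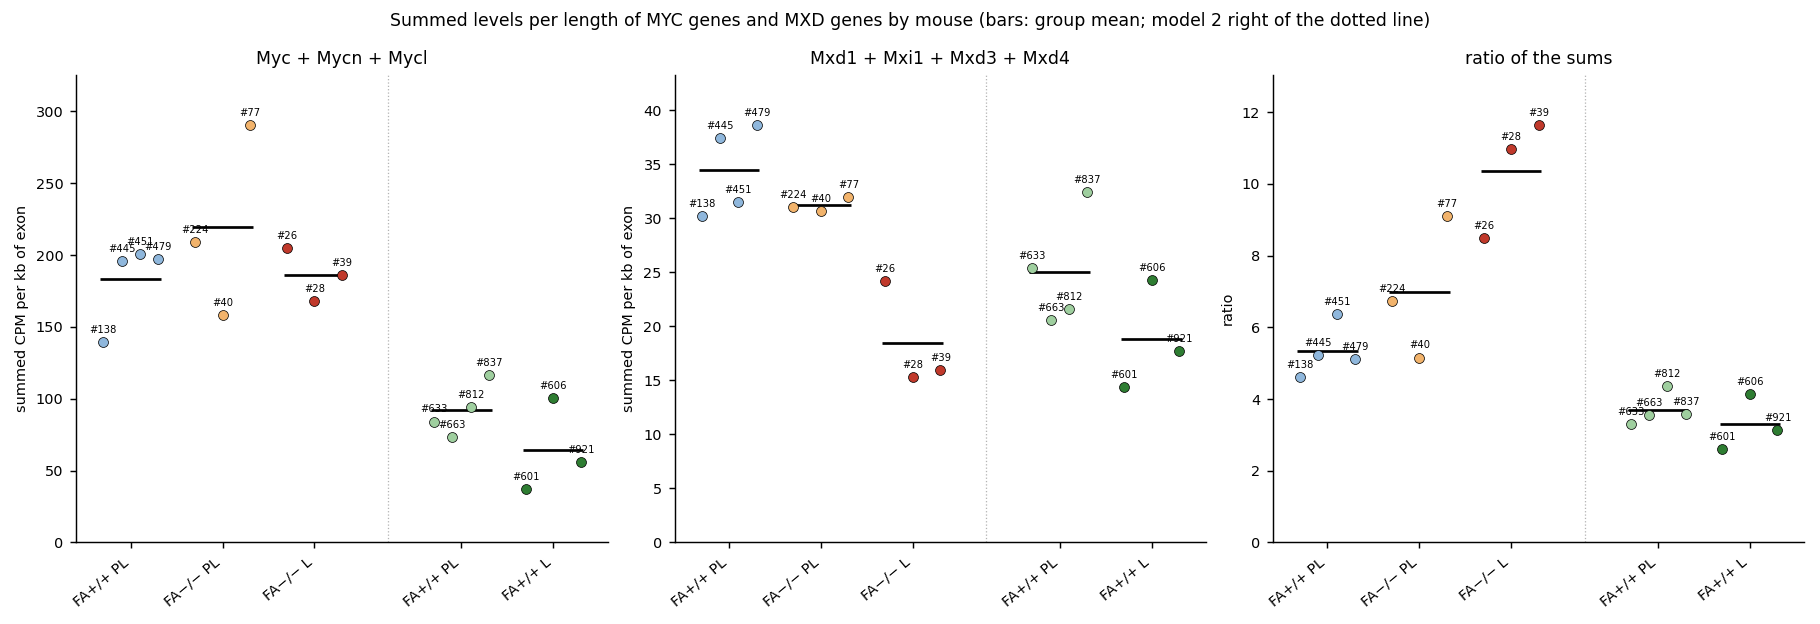
Summed CPM per kilobase of exon of the MYC genes (left) and of the MXD genes (middle) and their ratio (right) in each of the 17 mice, with mouse numbers after #, bars at group means and model 2 to the right of each dotted line. The MXD sum was 15.3 to 24.2 in TgSpi1FA−/− leukaemic mice and 30.7 to 31.96 in TgSpi1FA−/− preleukaemic mice, while the MYC sums and the ratios overlapped.

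Genes around the network were then described in leukaemic against preleukaemic TgSpi1FA−/− cells. Of 38 genes known to be activated by MYC, 6 rose and none fell, against 6.82% of all genes called higher and 6.49% called lower, and 27 had a positive value, with a median log2 fold change of 0.13 against −0.0012 over all genes. Hk2, the hexokinase of growing cells, rose from 64.8 ± 19.8 CPM (SD, n = 3) to 181 ± 46.5 CPM (log2 fold change 1.48, SE 0.255, adjusted p = 0.0118 by edgeR). Odc1, of polyamine synthesis, rose by 0.80 (SE 0.208, adjusted p = 0.0359), Ldha, of lactate production, by 0.73 (SE 0.156, adjusted p = 0.0213) and Ncl, the nucleolar protein nucleolin, by 0.70 (SE 0.142, adjusted p = 0.0184) on the log2 scale. The last 2 of the 6 were Npm1 and Impdh2. Without L-39 there were 4 calls, Hk2, Ncl, Npm1 and Odc1, and over the 6 libraries left out in turn there were 2 to 6, the lowest without PL-224. The share of all genes called, in either direction, moved as well. It was 13.3% with all libraries, 5.16% without L-39, and between 2.97% without PL-224 and 16.5% without L-26 over these fits. Hk2 and Npm1 were called in each of these 6 fits.

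Of 7 genes known to be repressed by MYC, Ndrg2 alone was called, against 13.3% of all genes. It was at 0.553 ± 0.145 CPM (SD, n = 3) in TgSpi1FA−/− preleukaemic and 111 ± 102 CPM in leukaemic mice (log2 fold change 7.64, SE 1.5, adjusted p = 0.0165 by edgeR). The leukaemic mice ranged from 13.3 to 216 CPM, all above the TgSpi1FA−/− preleukaemic ones. In TgSpi1FA+/+ preleukaemic mice Ndrg2 was at 3.17 to 40.3 CPM, which overlapped the leukaemic range. Against these mice it was not called in leukaemic cells (log2 fold change 3.09, SE 1.07, adjusted p = 0.104 by edgeR). The call was lost without PL-77, PL-224 or PL-40. Cdkn1a, the cell cycle inhibitor p21, had a log2 fold change of 1.20 (SE 0.923, adjusted p = 0.402 by edgeR).

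Among 15 tested genes of the SIN3-HDAC corepressor, which MXD and MNT proteins recruit, 3 fell and none rose. Of all genes, 6.49% were called lower and 6.82% higher. The 2 related subunits Arid4a (log2 fold change −1.29, SE 0.177, adjusted p = 0.00556 by edgeR) and Arid4b (−1.24, SE 0.161, adjusted p = 0.00535) were called in each fit with 1 library left out. Sap30 fell by 0.89 on the log2 scale (SE 0.243, adjusted p = 0.0421), and was not called without PL-77, PL-224, L-28 or L-39. The median of the list was −0.03, and the 12 subunits not called ranged from −0.47 for Sin3b (SE 0.161, adjusted p = 0.0796 by edgeR) to 0.29 for Sap18 (SE 0.18, adjusted p = 0.302).

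Among the 10 partners of MGA in PRC1.6, 1 rose and 2 fell, against 6.82% of all genes called higher and 6.49% lower. The reader subunit L3mbtl2 fell (log2 fold change −1.29, SE 0.256, adjusted p = 0.0172 by edgeR), as did the ubiquitin ligase Ring1 (−1.12, SE 0.303, adjusted p = 0.0404), while its paralogue Rnf2 rose (1.04, SE 0.207, adjusted p = 0.0175). Ring1 went from 27.1 ± 3.47 to 12.4 ± 4.89 CPM and Rnf2 from 70.5 ± 19.3 to 145 ± 21.4 CPM (SD, n = 3 each). Without L-39 only Rnf2 was called, and without L-28 none of the 3. In these 2 fits 5.16% and 3.01% of all genes were called in either direction.

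Among 14 tested genes acting on the MYC protein, 2 rose and none fell, against 6.82% of all genes called higher and 6.49% lower. The 2 that rose were the ubiquitin ligase subunit Skp2 (log2 fold change 1.14, SE 0.278, adjusted p = 0.0303 by edgeR) and the kinase Aurka (1.04, SE 0.195, adjusted p = 0.0148). Aurka was called in each fit with 1 library left out except without PL-224, and Skp2 only without L-26. None of the 13 coactivators of MYC and none of the 3 tested genes of the MLX branch, a parallel network with its own dimer partner, was called by edgeR, against 13.3% of all genes. DESeq2 called none of them either, against 19.8% of all genes.

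In model 2 edgeR called no gene of any of these lists, as it called none (0%) of all 12970 genes tested. Medians of log2 fold changes stood at −0.04 for the MYC-activated genes, 0.43 for the MYC-repressed genes, −0.36 for the coactivators, 0.01 for the SIN3-HDAC subunits, 0.06 for the PRC1.6 partners and −0.12 for the turnover genes, against −0.03 over all genes. DESeq2 called 1 MYC-activated gene higher and 2 SIN3-HDAC subunits lower there, against 3.45% of all genes called in either direction. In the test of the difference between the 2 models, 2 of 38 MYC-activated genes were called with a higher change in TgSpi1FA−/− cells, Ncl (1.65, SE 0.291, adjusted p = 0.0285 by edgeR) and Nolc1 (1.16, SE 0.284, adjusted p = 0.0394), and 1 with a lower change, Nme1 (−1.04, SE 0.251, adjusted p = 0.0378), against 2.76% of all genes called higher and 1.85% lower. The MYC-repressed gene Ndrg2 (9.33, SE 2.15, adjusted p = 0.035) and Ppp2r5a, a phosphatase subunit acting on MYC (1.92, SE 0.439, adjusted p = 0.0345), were also called higher by edgeR. Sap30 (−1.76, SE 0.44, adjusted p = 0.0407) and Cip2a, an inhibitor of that phosphatase (−1.03, SE 0.24, adjusted p = 0.0353), were called lower. Without L-39 none of these 7 genes was called, with edgeR's adjusted p-values of 0.0582 to 0.092 and unchanged directions.

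**Figure D4:**
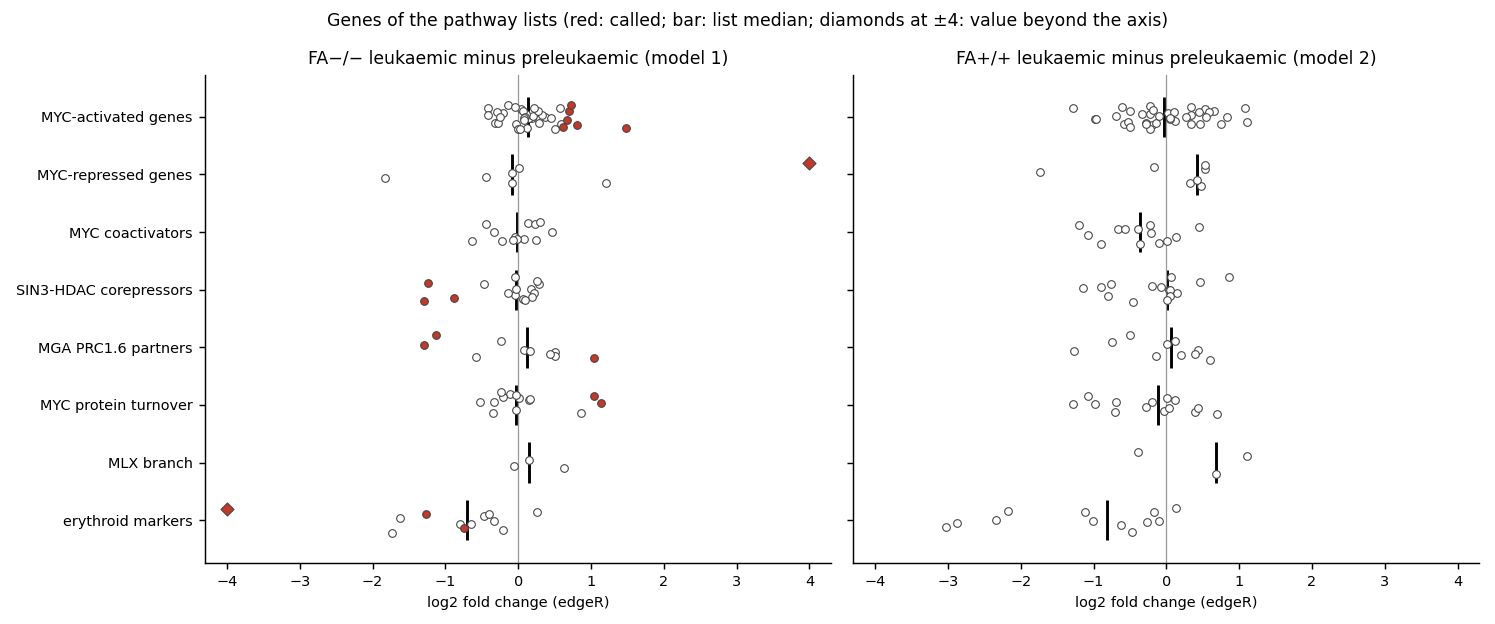
log2 fold change (edgeR) of each tested gene of 8 lists in leukaemic minus preleukaemic cells, TgSpi1FA−/− of model 1 on the left and TgSpi1FA+/+ of model 2 on the right; red points were called, bars are list medians and diamonds lie beyond the axis. In model 1, 6 MYC-activated genes were called, all higher. In model 2 no gene was called, in these lists or among all 12970 genes tested (0%).

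The genes whose pattern was most like that of a member were found by Pearson's r of log2 CPM over the 17 libraries, after each model was centred on its own mean, among about 8000 genes with at least 10 CPM in both models; the points share their libraries and groups, so r is a description. For Myc the 5 closest were Git1 (r = 0.84), the network member Mxi1 (0.78), Ttc27 (0.73), Lsm12 (0.73) and Akap13 (0.71). The likeness of Myc and Mxi1 was 0.46 within model 1 and 0.90 within model 2. For Mycn, the other member with the widest range in model 1, they were Sh3bgrl3 (0.86), Pgm2 (0.84), Pim1 (0.84), Nt5c3 (0.83) and Cited2 (0.81). Mycn had 0 counts in PL-138, PL-40, L-39 and L-921, so its range and these r values depend on the handling of counts near 0. Mxd1 and Mxd4 were added after the results were seen. Mxd1 was closest to Sirt2 (0.93), Sfmbt1 (0.92), Zfyve26 (0.92), Atxn7l1 (0.91) and Stat6 (0.91), and Mxd4 to Pde12 (0.95), Rb1 (0.91), Stom (0.91), Hbb-bt (0.90) and Bsdc1 (0.89).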

How the data were processed

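The authors deposited raw read counts per Ensembl gene, made from stranded poly(A) RNA-seq libraries of cultured blasts. The submitters' processing notes name bcl2fastq 2.17.1.14, STAR 2.5.3a, HTSeq 0.6.1p1 and the builds mm10 and GRCm38; the strand setting and annotation of the counting are not given in the sources used here. Stage was taken from sample titles. Whether libraries of a group came from separate cultures beyond separate mice is not stated.

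Counts were normalized by TMM in edgeR 4.0.16 (R 4.3.3) after filterByExpr, and each model was fitted on its own (10 and 7 libraries) with glmQLFit and glmQLFTest; the difference between models was fitted over 17 libraries. A gene was called at a Benjamini-Hochberg adjusted p under 0.05 over all genes tested and a fold of at least 1.5. SEs are the log2 fold change divided by the root of F. CPM are raw counts scaled by the library total times its TMM factor, and CPM per kilobase divide by the union of exons in GENCODE M21 (GRCm38), which held 99.8% to 99.9% of the identifiers. Alternatives were DESeq2 1.42.0, its size factors, other filters, robust fits, the groups compared alone, single libraries left out, PL-445 and PL-479 averaged, and a further table of 7 mice. Fits of the lists with 1 library left out were added after the data had been seen. Members and lists were chosen with earlier results of these data known. From each list the called genes were named, at most 4 with the largest change and at least 10 CPM in a sentence, besides Vwf, Npm1, Impdh2, Cdkn1a, Nme1, Sin3b and Sap18. Scripts were tested on simulated data. Intervals cover counting error only. The promoter of 1 further member is not reported here.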

Additional observations from a re-analysis of the deposited data

Results flagged for a closer look

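In each group of 4 mice the member values were examined for a sample standing apart by Dixon's test at its 95% critical value. Of 20 such groups, 3 held a sample that stood apart. The test's rate of about 1 in 20 by chance holds for independent values of normal spread. Members were measured in the same mice, so the 3 cannot be set against that rate. Mouse PL-138 of the TgSpi1FA+/+ preleukaemic group of model 1 stood apart for both Mxd1, at 79.7 CPM against 50.6 to 51.3 CPM in the other 3, and Myc, at 379 CPM against 531 to 545 CPM. In that group the libraries of PL-445 and PL-479 lie unusually close to each other. In the TgSpi1FA+/+ preleukaemic group of model 2, Mycn was at 11.7 CPM in PL-812, while the nearest mouse was at 0.445 CPM. The further table gave PL-138 the highest Mxd1 of its group as well, at 130 CPM, and the lowest Myc, at 206 CPM against 269 to 369 CPM.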

How the results depend on the processing

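Genes called between leukaemic and preleukaemic TgSpi1FA−/− cells numbered 1782, 3099 by DESeq2 and 414 to 2319 with 1 library left out; members called numbered 2, 4 by DESeq2, 1 with only the groups compared (Mxd4) and 0 to 3 with 1 library left out. Between the preleukaemic groups 1 gene was called, 256 by DESeq2, 4 with no filter and 1 to 16 with 1 library left out, with 0 to 0 members. Between TgSpi1FA−/− leukaemic and TgSpi1FA+/+ preleukaemic cells 939 genes were called, 2245 by DESeq2, 112 with PL-445 and PL-479 averaged, 267 in the further table and 53 to 1911 with 1 library left out; members numbered 2, 4 by DESeq2 (Mxd3 and Mycl added), 1 with only the groups compared or the average, 0 in the further table and 0 to 4 with 1 library left out (0 without L-28). In model 2 no gene was called by edgeR, 470 by DESeq2 and 0 to 1 with 1 library left out, with 0 to 0 members. For the difference between models 673 genes were called, 2037 by DESeq2, 279 with no filter, 1 with only the groups compared, 293 with the average and 1 to 1359 with 1 library left out; members numbered 0, 3 by DESeq2 and 0 to 2. The cause of these moves was not tested.

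Signs turned for small values. Mxi1 in TgSpi1FA−/− progression was 0.03867 (DESeq2), 0.04422 (its size factors), 0.01122 (no filter), 0.01225 (1 CPM in 3 libraries) and 0.03052 (only the groups compared). Max between preleukaemic groups was −0.0008053 (DESeq2) and −0.00098 (its size factors), Mxd3 there was 0.1379 with the average, and Myc in the further table was −0.4332. With 1 library left out the log2 fold changes in TgSpi1FA−/− progression ranged from −0.4444 to 0.01781 for Myc, −0.2473 to 0.1924 for Mxi1 and −0.03304 to 0.5395 for Mga. Between preleukaemic groups they ranged from −0.3807 to 0.2203 for Mxd3, −0.04696 to 0.06422 for Max, −0.00103 to 0.4483 for Myc and −2.241 to 1.173 for Mycl. Between TgSpi1FA−/− leukaemic and TgSpi1FA+/+ preleukaemic cells they ranged from −0.1154 to 0.02715 for Mnt, −0.09644 to 0.09425 for Myc, −0.8992 to 2.308 for Mycn and −0.4144 to 0.02513 for Mxi1. Differences between models ranged from −0.4879 to 0.1454 for Max, −0.06465 to 0.7033 for Myc and −0.02655 to 0.6847 for Mxi1. Mxd1 and Mxd4 kept a negative sign under every alternative in both comparisons where they were called. No paired analysis was possible because mouse numbers are not shared between groups. Depth limits Mycn, Mycl and Mxd3 most, and 3 or 4 mice a group limit all tests.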
